A study of Mus musculus with 2 samples.

Results

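Mast cells are immune cells of skin, connective tissue and the coverings of the brain. They store histamine and serine and metal-dependent proteases in granules, and they release them when antibody bound to the high-affinity IgE receptor is cross-linked. Their growth depends on the receptor tyrosine kinase Kit. Tryptases and chymases are their main serine proteases, and connective tissue mast cells of the mouse carry the tryptases together with the chymases Cma1 and Mcpt4 and the carboxypeptidase Cpa3, while mucosal mast cells carry Mcpt1 and Mcpt2.

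The genes described are 9 mast cell genes, of 18193 genes that the arrays represent by at least 1 probe set naming that gene alone. They are the tryptases Tpsab1 and Tpsb2, the chymases Cma1 and Mcpt4, the carboxypeptidase Cpa3, the receptor Kit, the IgE receptor chains Ms4a2 and Fcer1a, and Hdc, the histidine decarboxylase that makes histamine. They were chosen because Tpsab1 was higher on one array, to ask whether other mast cell genes went with it, so the members were selected on the Tpsab1 signals of these 2 arrays and on knowledge of mast cells, and the Tpsab1 values are given as a description. Every probe set annotated to exactly 1 gene of the 9 was taken, 13 of the 34945 single-gene probe sets.

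The series holds 2 Affymetrix arrays, 1 of a Sox11-null (Sox11(-/-)) embryo and 1 of a wild-type (Sox11(+/+)) littermate. Both RNAs were labelled as cerebral cortex at E17.5, late in embryonic development, from a cross of heterozygous parents on a mixed C57BL/6 and 129 background. Sox11 is a SoxC transcription factor expressed in developing neurons, and the question put to the arrays is which genes of the cortex change when it is lost. Each genotype is 1 embryo, so no difference below has a replicate check and none was tested.

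A few facts of the libraries bear on these genes. All 6 Sox11 probe sets were lower on the null array, at 16.4% to 47.8% of the wild-type signal. The sources used here do not say which of them the deletion removes. The female-specific RNA Xist was at 155 on the null array and 17505 on the wild-type array, and Uty and Kdm5d of the Y chromosome were at least 11.8-fold and 8.55-fold higher on the null array, so the libraries differ in sex-linked genes as well as in Sox11. Of 9 cortical neuron markers, 7 had a probe set, and these summed to 7142 on the null array and 7735 on the wild-type array. Skeletal muscle markers (10 of 10 with a probe set) summed to 123505 on the null and 122544 on the wild-type array, and fibroblast genes of dermis and meninges (12 of 12) to 97319 on the null and 97175 on the wild-type array. Thus both RNAs labelled as cortex held strong signals of tissues in which mast cells also live. For beta-actin, the 3' over 5' signal ratio was 1.16 on the null and 1.78 on the wild-type array. For Gapdh, this ratio was 0.82 on the null and 0.92 on the wild-type array.

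Of the measured mast cell genes, the 2 tryptases were the ones beyond 1.5-fold, both higher on the null array. Tpsab1 was 12.4-fold higher on the null array and Tpsb2 1.59-fold higher. The proteases Cma1, Mcpt4 and Cpa3, the receptor Kit and the enzyme Hdc were all within 1.5-fold on their brightest probe sets, while Ms4a2 and Fcer1a were too dim to be counted as measured. A gene was counted as measured where its brightest probe set reached the array median on at least 1 array (177.4 null, 177.5 wild type), which 7 of the 9 genes and 12390 of all 18193 genes did. Of the 7 measured mast cell genes, 2 were 1.5-fold higher or more and 0 were that far lower, where 3.07% of all measured genes lay that far above and 3.24% that far below. Tpsab1 is 1 of those 2, and it was chosen for its difference. It also counted as measured through the null array alone (863 null, 70.7 wild type).

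**Figure D1:**
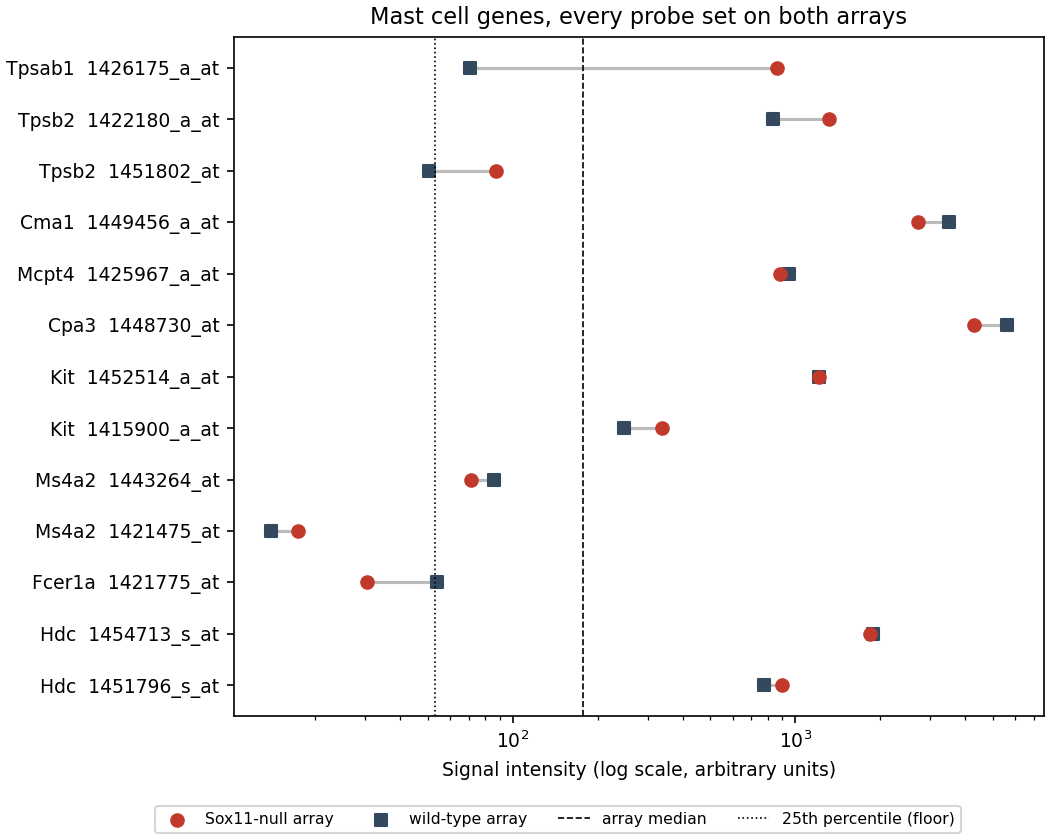
Signal intensity (log scale) of all 13 probe sets of the 9 mast cell genes on the Sox11-null array (red circles) and the wild-type array (dark squares), with the array median (dashed) and the 25th percentile (dotted) of the wild-type array. The wide gap is that of Tpsab1, at 863 on the null array and 70.7 on the wild-type array, while the symbols of Kit 1452514_a_at lie together at 1211 on the null and 1215 on the wild-type array.

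Tpsab1 encodes a soluble granule tryptase. Its only probe set here, 1426175_a_at, had a signal of 863 on the null array and 70.7 on the wild-type array. The null value lay above the array median, and the wild-type value lay between the 25th percentile of its array (52.9), used as a floor for low signals, and the median. On the log2 scale, after the null array had been shifted so that the median measured gene differed by 0, the difference was 3.63. Because the wild-type signal is dim, the size depends on the floor, and raising the floor to the median of each array gave 2.30. In the RefSeq table of the C57BL/6J genome (GRCm38.p6), Tpsab1 lies on chromosome 17 and is listed as a transcribed pseudogene. As background, C57BL/6 mice are known for a splice-site change in this gene that keeps the tryptase from being made, while other strains make it. The alleles that the 2 embryos carried at Tpsab1 on this mixed background were not examined here, and a difference between such alleles and the loss of Sox11 cannot be told apart with 1 embryo per genotype. The same holds for sex.

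Tpsb2 encodes the other main mast cell tryptase, and its gene is the next one after Tpsab1 along chromosome 17 among genes with a probe set. Its brightest probe set, 1422180_a_at, read 1313 on the null array and 835 on the wild-type array, a log2 difference of 0.67. The second probe set, 1451802_at, was dim, at 86.9 on the null array and 50.7 on the wild-type array, where the wild-type value is below the floor. It was at least 1.67-fold higher on the null array. Both probe sets were therefore higher on the null array. With the measured genes split into 3 equal groups by level (4130 each), the difference of the brightest probe set lay outside the central 95% of the middle group (-0.49 to 0.57), and 254 measured genes (2.05%) reached or passed it. Tryptases are similar in sequence, and how far Tpsb2 probes also read Tpsab1 RNA was not tested.

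**Figure D2:**
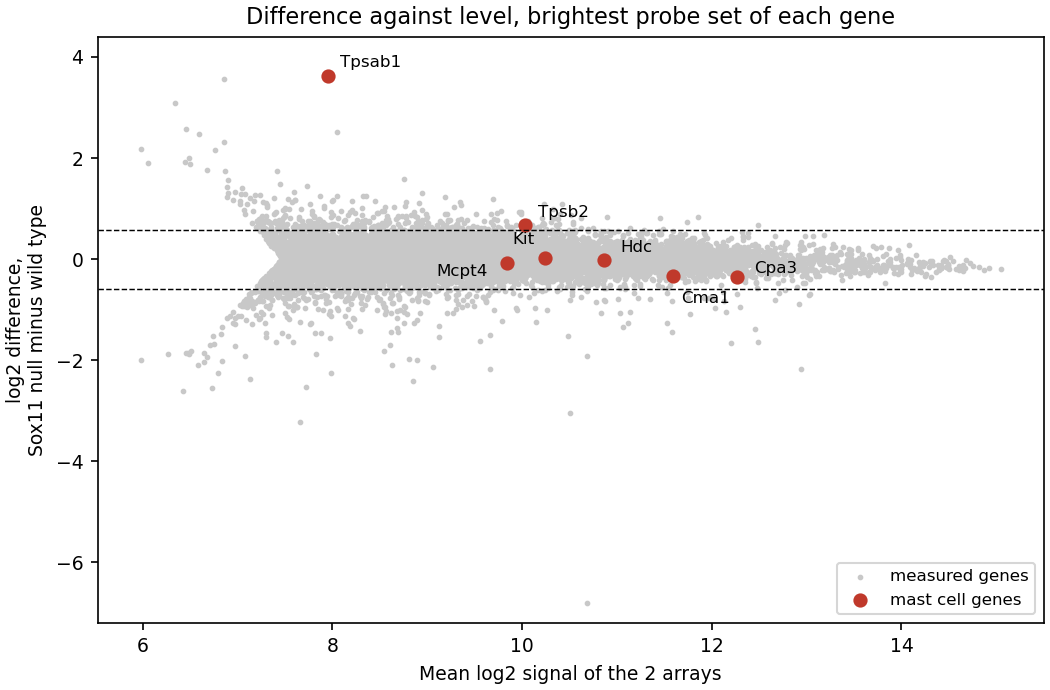
Difference in log2 signal, Sox11 null minus wild type, against the mean log2 signal of the 2 arrays for 12390 measured genes (grey) and the 7 measured mast cell genes (red); dashed lines mark 1.5-fold. Tpsab1 lies far above the cloud at 3.63, Tpsb2 just above the upper line at 0.67, and the other 5 lie between the lines.

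The other 3 proteases were bright on both arrays and slightly lower on the null array. Cpa3, the carboxypeptidase that shares the granule with the tryptases and chymases, read 4314 on the null array and 5623 on the wild-type array (log2 difference -0.36). Cma1, a chymase gene, read 2717 on the null array and 3494 on the wild-type array (-0.34). Mcpt4, regarded as the functional counterpart of human chymase, read 885 on the null array and 953 on the wild-type array (-0.086). None of the 3 left the central 95% of genes of its own level group, which was -0.46 to 0.45 in the brightest group, which holds Cpa3 and Cma1, and -0.49 to 0.57 in the middle group, which holds Mcpt4. Differences at least as low as that of Cpa3 were seen in 8.77% of measured genes. In RNA from a whole tissue, fewer mast cells and less of an RNA per mast cell cannot be told apart. With Tpsab1 left out, the median difference of the other 8 genes was -0.055, where the median over all measured genes was set to 0. These 8 include Ms4a2 and Fcer1a, which were not measured. The 6 measured genes among them also had a median of -0.055. The difference of Tpsab1 exceeded that of Tpsb2 by 2.96 and the median of the other 8 genes by 3.69 on the log2 scale. Tpsab1 was chosen for its difference, so these gaps are a description and no support for its standing apart.

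Cpa3, Cma1 and Mcpt4, the 3 proteases other than tryptases, all within 1.5-fold, are shown with the bases around their starts, since mast cell protease genes are known as targets of GATA factors. The windows run from 250 bases before to 50 after the start in RefSeq's table (GRCm38.p6), all on the minus strand, at chr3:20242132-20242431 for Cpa3, chr14:55944626-55944925 for Cma1 and chr14:56062261-56062560 for Mcpt4. They are written 5′ to 3′, with capitals at GATAA or, for the other strand, TTATC, the GATA-type motif searched.
Cpa3: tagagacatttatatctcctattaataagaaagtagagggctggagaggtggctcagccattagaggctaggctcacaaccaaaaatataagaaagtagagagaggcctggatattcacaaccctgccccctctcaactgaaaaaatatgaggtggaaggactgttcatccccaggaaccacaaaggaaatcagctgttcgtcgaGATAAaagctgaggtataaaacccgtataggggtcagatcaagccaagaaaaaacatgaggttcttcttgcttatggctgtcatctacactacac
Cma1: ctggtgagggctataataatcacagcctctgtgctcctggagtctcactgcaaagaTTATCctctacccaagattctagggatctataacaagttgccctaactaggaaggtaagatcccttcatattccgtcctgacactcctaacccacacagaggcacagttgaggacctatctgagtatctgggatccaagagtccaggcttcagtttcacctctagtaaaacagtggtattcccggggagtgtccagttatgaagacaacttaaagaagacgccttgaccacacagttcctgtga
Mcpt4: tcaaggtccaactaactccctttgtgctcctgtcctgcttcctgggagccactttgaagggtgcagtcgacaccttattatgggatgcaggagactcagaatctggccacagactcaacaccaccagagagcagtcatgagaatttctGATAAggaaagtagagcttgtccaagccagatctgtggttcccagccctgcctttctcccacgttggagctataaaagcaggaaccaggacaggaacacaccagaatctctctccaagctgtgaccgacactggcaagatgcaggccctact
Each window held 1 match. Among the 7 mast cell genes that the table lists, 5 had at least 1 match (the 3 above, Ms4a2 and Fcer1a, and not Kit or Hdc). Of all 32851 windows of 300 bases in the table, 25.4% held at least 1. Tpsab1 and Tpsb2 are named only. A match is a description of the letters and not a site of binding.

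Of the 3 receptor genes, 1 was measured, Kit, so a common direction could not be read. Kit, the receptor for stem cell factor, read 1211 on the null array and 1215 on the wild-type array with 1452514_a_at, a log2 difference of 0.016. Its other probe set, 1415900_a_at, read 338 on the null array and 248 on the wild-type array (0.47). For scale, probe sets of 1 gene scattered about their mean difference with a pooled SD of 0.39 on the log2 scale, over 5155 genes. Kit is also expressed by melanocytes and some neurons. Ms4a2, the beta chain of the IgE receptor, read 71.1 on the null array and 86.0 on the wild-type array with 1443264_at, and 17.4 on the null array and 13.9 on the wild-type array with 1421475_at. All 4 values lay below the array medians, and those of 1421475_at below the floor. Fcer1a, the chain of that receptor that holds IgE, read 30.5 on the null array and 53.8 on the wild-type array, the first below and the second close to the floor. No fold is given for Fcer1a, and whether the receptor chains differed could not be read from these dim signals. Fcer1g, the signalling chain that this receptor shares with other Fc receptors of immune cells, was bright, at 884 on the null array and 1029 on the wild-type array (-0.20).

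Hdc, the enzyme of histamine synthesis, was nearly level. Its brightest probe set, 1454713_s_at, read 1837 on the null array and 1894 on the wild-type array (log2 difference -0.024). The other, 1451796_s_at, read 899 on the null array and 776 on the wild-type array (0.23). Both are of a type whose probes can match more than 1 transcript. Hdc is also expressed in histamine neurons of the hypothalamus.

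Further mast cell genes were taken in 3 lists that hold none of the 9. Of 38 such genes 31 had a probe set and 16 were measured, 1 of them higher by 1.5-fold or more and 1 lower by as much, where 3.07% of all measured genes were that far higher and 3.24% that far lower. None of the 16 was beyond 2-fold, as against 1.56% of all measured genes, and a count this near the background says nothing of the list. Their median difference was 0.0071. Their summed signal over 31 genes was 11027 on the null array and 11462 on the wild-type array. Its largest term was Kitl (2207 null, 2119 wild type), made by cells around mast cells, so the sum does not measure mast cell RNA.

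Among genes of granules and mediators, 5 of 13 with a probe set were measured and all 5 were within 1.5-fold. Of all measured genes, 3.07% were higher by that much or more and 3.24% lower, so this count says nothing of the list. The brightest were Srgn, the core protein of the granule proteoglycan, at 1326 on the null array and 1319 on the wild-type array (0.028), and Alox5ap, needed for leukotriene synthesis, at 676 on the null array and 653 on the wild-type array (0.069). The vesicular monoamine transporter gene Slc18a2, which loads histamine and serotonin, read 335 on the null array and 271 on the wild-type array (0.32). The mucosal proteases were dim. Mcpt2 read 140 on the null array and 44.5 on the wild-type array, at least 2.69-fold higher on the null array but below the median on both. Mcpt1 read 39.4 on the null array and 3.68 on the wild-type array, both below the floor, so that no fold is given. Tph1, the enzyme of serotonin synthesis in mast cells, read 116 on the null array and 71.6 on the wild-type array (0.72), again below the median on both. Basophils share many of these genes with mast cells. None of the 3 basophil markers with a probe set was measured, and Mcpt8, their defining protease, read 44.0 on the null array and 22.4 on the wild-type array.

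In the list of receptors and signalling, 7 of 13 genes with a probe set were measured, with 1 at least 1.5-fold higher, 0 that much lower (3.07% and 3.24% over all measured genes) and a median of -0.036. The one higher was Mrgprb1, a receptor gene of the Mrgpr family, at 192 on the null array and 121 on the wild-type array (0.68). It counted as measured through the null array alone, and its difference lay inside the central 95% of the dimmest level group (-0.94 to 0.82). The brightest were Gab2, an adaptor of Kit and IgE receptor signalling, at 1010 on the null array and 1517 on the wild-type array (-0.57), and Fcer1g, given above. Gab2 was within 1.5-fold but outside the central 95% of the brightest level group (-0.46 to 0.45). The other 2 probe sets of Gab2 were also lower on the null array, by -0.35 and -0.50. Lat2, an adaptor phosphorylated after IgE receptor activation, was higher at 0.66 but below the median on both arrays (164 null, 105 wild type), and Rgs13, a regulator of G protein signalling, was at least 1.79-fold lower (35.9 null, 95.3 wild type), also below it.

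Of the transcription factors and the Kit ligand, 4 of 5 were measured. Mitf, a transcription factor of mast cells and melanocytes, was lower, at 208 on the null array and 377 on the wild-type array (log2 difference -0.84). That difference lay inside the central 95% of the dimmest level group (-0.94 to 0.82). Gata2, which specifies the mast cell lineage, read 548 on the null array and 576 on the wild-type array (-0.053), with 0.53 by its second probe set. Kitl, which encodes the ligand of Kit and is made by cells around mast cells, read 2207 on the null array and 2119 on the wild-type array (0.078). Beside Mitf, all 5 measured genes of 7 melanocyte markers were lower on the null array, where the median measured gene was set to 0. Of these 5, 1 was at least 1.5-fold lower, where 3.24% of all measured genes were that far lower. Tyr and Mlana, below the median on both arrays, were at 0.055 and -0.55. The 7 melanocyte markers summed to 1959 on the null and 2368 on the wild-type array. Their part in the values of Mitf and Kit was not tested.

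**Figure D3:**
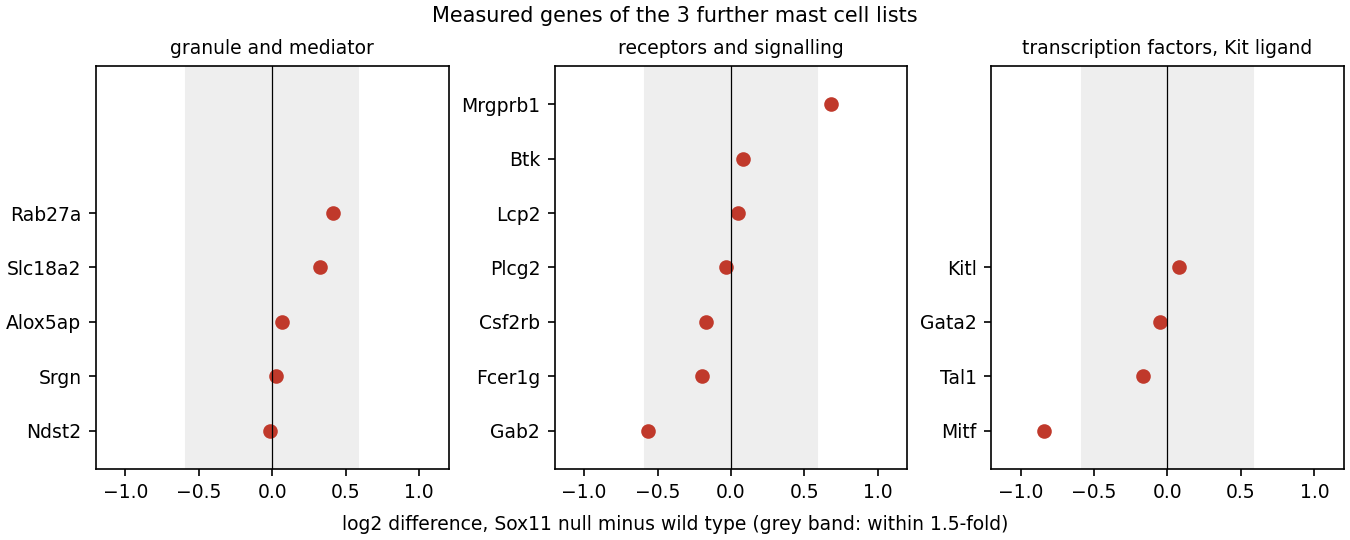
Difference in log2 signal, Sox11 null minus wild type, for the 16 measured genes of 3 further mast cell lists, 1 point per gene by its brightest probe set; the grey band marks 1.5-fold. Points outside the band are Mrgprb1 at 0.68 and Mitf at -0.84.

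Genes around Tpsab1 on chromosome 17 were set beside it. Tpsab1, chosen for its difference, had the highest of all measured genes, so every neighbour had to lie below it. The 15 genes with a probe set on each side were taken, and 22 of these 30 were measured. Of them 3 were at least 1.5-fold higher (Tpsb2, the mesothelial gene Msln at 0.74 and Ciao3, of iron-sulfur protein assembly, at 0.61) and 1 lower (Gng13, a G protein subunit of taste cells, at 49.3% of the wild-type signal). That is 13.6% of the 22 higher and 4.55% lower, where 3.07% of all measured genes were that far higher and 3.24% that far lower. Tpsb2 is also a member of the mast cell genes described. Msln (198 null, 120 wild type) counted as measured through the null array alone. Gng13 (167 null, 339 wild type) counted through the wild-type array alone. The median of the 22 was 0.099. Prss29, the serine protease gene just before Tpsab1 in this order, read 351 on the null array and 437 on the wild-type array (-0.30). Tpsg1, a membrane-anchored tryptase gene just after Tpsb2, read 43.6 on the null array and 73.4 on the wild-type array, where the null value is below the floor. In the wider tryptase cluster, Prss29 was the 1 gene measured of 7 with a probe set. In the chymase cluster on chromosome 14, apart from Cma1 and Mcpt4, 0 of 11 genes with a probe set were measured and 9 were at the floor on both arrays.

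**Figure D4:**
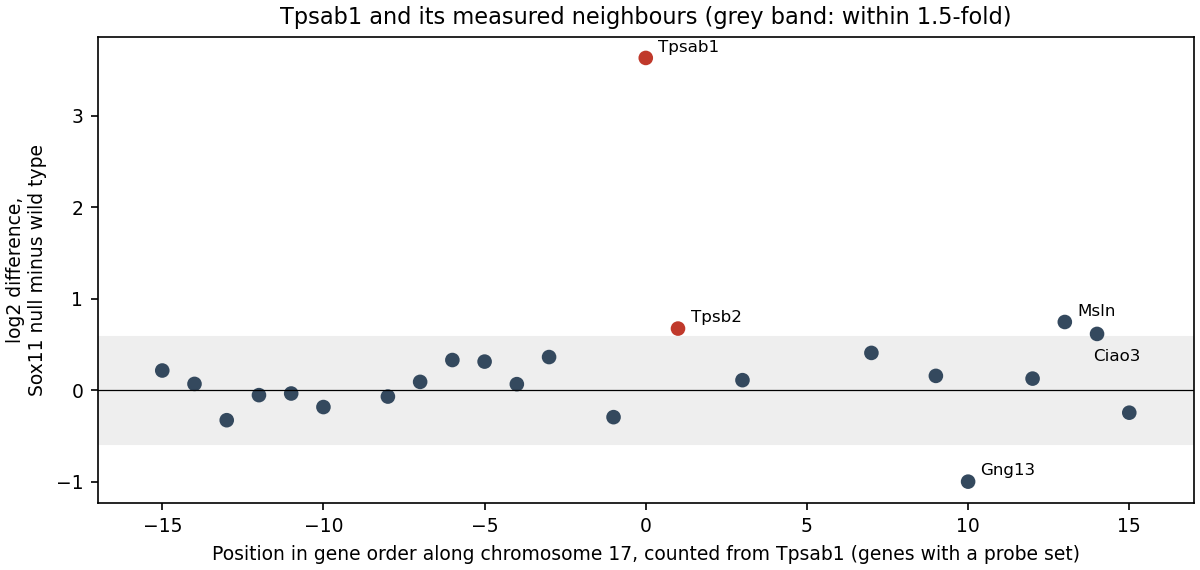
Difference in log2 signal, Sox11 null minus wild type, of Tpsab1 and its measured neighbours against their position in gene order on chromosome 17 (gene 0 is Tpsab1, positions count genes with a probe set); the grey band marks 1.5-fold. Tpsab1 stands at 3.63, the highest of the 22 neighbours is Msln at 0.74, the lowest is Gng13, and Tpsb2, in red, is at 0.67.

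The measured genes whose difference came nearest to that of Tpsab1, leaving out genes at the floor on either array, were no known mast cell genes. Tpsab1 had the highest difference of all measured genes, so these genes were the next highest above the floor. Which genes they were is no result about mast cells. By the gap between log2 differences, over 2 arrays, they were Zdhhc12, a protein palmitoyltransferase gene (627 on the null array and 111 on the wild-type array, log2 difference 2.52, gap 1.11), Gm9866 (187 null and 56.0 wild type, 1.76, gap 1.87) and the orphan receptor gene Gpr27 (213 null and 64.2 wild type, 1.75, gap 1.88). All 3 had a wild-type signal below the array median and counted as measured through the null array alone, as Tpsab1 did. Uty and Kdm5d of the Y chromosome were left out because their wild-type signals were below the floor. Their log2 differences were at least 3.56 and 3.10.

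Markers of other immune cells and of skin were set beside these values. Of 13 macrophage and microglia genes, 10 were measured and all 10 were within 1.5-fold, where 3.07% of all measured genes were higher by that much or more and 3.24% lower. The microglia receptor gene Cx3cr1 was higher at 144 on the null array and 68.2 on the wild-type array (1.10), below the median on both. The macrophage and microglia list summed to 9782 on the null and 9866 on the wild-type array. Of 9 neutrophil genes, 3 were measured, and S100a8 was higher at 533 on the null array and 264 on the wild-type array (log2 difference 1.03). S100a9 and Ltf, also measured, were within 1.5-fold (0.44 and 0.18). Mpo, Prtn3 and Ngp, below the median on both arrays, were within it too (-0.22, -0.018 and 0.0099). The neutrophil elastase gene Elane was at least 2.17-fold higher (113 null, 12.9 wild type), below the median on both. The neutrophil list summed to 1797 on the null and 1310 on the wild-type array. The T cell and B cell lists each had 1 measured gene, within 1.5-fold, and summed to 350 and 418 on the null array and 362 and 439 on the wild-type array. Of 11 epidermal genes, all were measured, 7 were at least 1.5-fold lower and 0 higher, where 3.24% of all measured genes were that far lower and 3.07% that far higher. The lower ones beyond 2-fold were genes of the layers above the basal one, namely Dsc1 (log2 difference -2.14), Flg (-1.93), Krt10 (-1.64), Ivl (-1.47), Krt1 (-1.38) and Dsg1a (-1.13). Basal keratinocyte genes were within 1.5-fold, with Krt5 at 0.11, Krt15 at 0.19, Trp63 at -0.083 and Krt14 at -0.39. The epidermal list summed to 26305 on the null and 46959 on the wild-type array. The part of skin or neutrophil RNA in the tryptase values was not tested.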

How the data were processed

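The deposited table, made by the authors, holds a linear signal intensity for each probe set on each array (45101 probe sets, 64 of them controls and left out). Affymetrix Expression Console is named in the submitters' processing notes, and the sources used here do not give the summary algorithm. Both arrays had the same trimmed mean (500.002, with 2% trimmed at each end), as scaling by 1 factor per array gives. Probe sets were named from the platform annotation, with 34741 of 34945 single-gene symbols updated by gene number through RefSeq's GRCm38.p6 table. No detection call was used, and the number of arrays limits the precision.

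Signals were taken to log2 and the null array was shifted by 0.020 to a median difference of 0 over measured genes. Values below the 25th percentile (52.5 null, 52.9 wild type) were raised to it, and a fold with 1 value there is a lower bound. A gene is given by its brightest probe set. Calculations used Python 3.11.15, numpy 2.4.6, pandas 2.3.3 and statsmodels 0.14.6, and were tested on simulated data.

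The members and lists were chosen with earlier results of these data known. Named were every member with every probe set, the Sox11 probe sets, the genes of 3 mast cell lists beyond 1.5-fold and their 2 brightest, genes of other lists beyond 2-fold or defining, and the 3 genes nearest to Tpsab1 in difference. Other names, such as the neighbours, were chosen after their values were seen. Alternatives were other normalizations, floors, filters and probe set choices.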

Additional observations from a re-analysis of the deposited data

How the results depend on the processing

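The statement that 2 of the mast cell genes, Tpsab1 and Tpsb2, were at least 1.5-fold higher and 0 lower held under all 9 alternatives (no centring, quantile normalization, a loess trend removed, no floor, a floor at the array median, no filter, a filter at the 75th percentile, all probe sets averaged, and no _s_at or _x_at probe sets). Tpsab1 was chosen for its difference on these same 2 arrays, so its staying higher is no support for that difference. Tpsb2 ranged from 0.65 to 0.70 and the median of the members other than Tpsab1 from -0.17 to -0.051 on the log2 scale, with -0.17 reached with no floor. Tpsab1 gave 2.30 with a median floor and lay between 3.61 and 3.63 in the other 8, so its size, not its direction, rests on a dim wild-type signal. Fcer1a was at -0.80 with no floor, from signals too dim to be read as a difference. Ms4a2 and Fcer1a had no value with the median floor, and Hdc none without _s_at and _x_at types. The number of measured genes beyond 2-fold was 193, and 96 with the floor at the median, 372 with no filter and 62 with the filter at the 75th percentile. A higher floor shrinks the differences of dim genes, and the filters change which dim genes are counted. No paired analysis was possible because each genotype has 1 array.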
